A study of Mus musculus with 20 samples.

Results

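The binding of EGR1 was set beside acetylation of lysine 27 on histone H3 (H3K27ac) in nuclei labelled excitatory neuron, using 4 of the 20 libraries of the study: 2 for EGR1 and 2 for H3K27ac. Every library came from CUT&RUN, in which an antibody directs a nuclease to a protein on chromatin and the released DNA is sequenced. The nuclei were sorted by flow cytometry from the whole brain of mice aged 8 weeks. All groups, the inhibitory nuclei included, carried the genotype Sun1 f/f with Emx1Cre (+), so no library without Cre enters. Emx1 marks the developing dorsal forebrain, from which most cortical and hippocampal excitatory neurons arise. Emx1-Cre marks that lineage, glia included, so neither excitatory neurons from elsewhere in the brain nor most inhibitory neurons would carry a Cre-dependent label. How the sort told the nuclei types apart is not stated in the labels used here, and nothing in them says that the 2 replicates of a target came from different mice. All p-values therefore measure the spread between these libraries, which may be technical.

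EGR1 is a zinc finger transcription factor of the immediate early class: neuronal activity induces its gene within minutes, and the protein binds GC-rich DNA with the consensus GCGTGGGCG. In the forebrain it is best known from synaptic plasticity and memory, and its corepressors NAB1 and NAB2 are themselves encoded by EGR1 target genes. H3K27ac is written by the acetyltransferases CBP and p300 and marks active promoters and enhancers. Peaks of both over 1 position say that both were found there in the population of nuclei, not that they share a molecule of DNA.

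Members were found by overlap. Peaks of the 4 libraries on chromosomes 1 to 19 and X (build mm10) were merged into 383793 regions, and a library was counted at a region when its peaks shared 1 base or more with the region. EGR1 and acetylation, meaning a peak in all 4 libraries, was the class of 29865 regions, 7.78% of all. EGR1 alone, with both EGR1 libraries and neither H3K27ac library, made up 15624 regions or 4.07%. Acetylation alone, the reverse, made up 17323 regions or 4.51%. The other 320981 regions were found in only 1 library of EGR1, of H3K27ac or of both. Protein-coding genes, 21627 in number, were put into the same classes by peaks within 2 kb of either end of the gene, because a start site was listed for only 17273 of them.

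Promoters show the classes at the level of bases. The 6 below are the 250 bases before the RefSeq start site (GRCm38.p6, the assembly of mm10), 5′ to 3′ on the strand of the gene, and capitals mark GCGTGGGCG or GCGGGGGCG, the 2 usual forms of the EGR1 motif, on either strand. They were chosen after their values were seen, to set promoters with both signals, EGR1 alone, acetylation alone and neither side by side.

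Nab1 encodes an EGR corepressor. Its promoter, chr1:52500449-52500698 on the minus strand, was covered over all 250 bases in each of the 4 libraries and held 3 motifs.

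Nab1: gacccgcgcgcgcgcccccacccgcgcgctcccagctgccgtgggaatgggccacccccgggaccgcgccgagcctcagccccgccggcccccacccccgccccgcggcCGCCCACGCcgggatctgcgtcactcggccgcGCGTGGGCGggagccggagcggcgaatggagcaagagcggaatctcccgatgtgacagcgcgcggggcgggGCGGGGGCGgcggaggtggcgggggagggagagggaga

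Ep300 encodes the acetyltransferase p300. Its promoter, chr15:81585964-81586213 on the plus strand, was likewise covered over all 250 bases in the 4 libraries and held 1 motif that began 25 bases before the start site.

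Ep300: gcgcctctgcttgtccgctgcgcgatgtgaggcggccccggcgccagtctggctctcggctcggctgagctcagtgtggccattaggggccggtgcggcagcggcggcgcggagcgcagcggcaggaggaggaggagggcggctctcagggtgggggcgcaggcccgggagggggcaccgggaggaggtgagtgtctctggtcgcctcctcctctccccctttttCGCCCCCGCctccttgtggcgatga

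Klf4 encodes a zinc finger factor. Its promoter, chr4:55532476-55532725 on the minus strand, lay under EGR1 peaks for 250 bases in replicate 1 and 86 in replicate 2, and under no H3K27ac peak. Its 1 motif began 194 bases before the start site.

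Klf4: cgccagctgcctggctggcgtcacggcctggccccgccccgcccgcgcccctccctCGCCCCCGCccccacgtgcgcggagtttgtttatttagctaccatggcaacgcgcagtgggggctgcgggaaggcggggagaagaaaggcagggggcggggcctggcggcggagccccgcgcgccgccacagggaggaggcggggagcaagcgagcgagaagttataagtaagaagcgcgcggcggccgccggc

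Npas4 encodes a neuron-specific immediate early transcription factor. Its promoter, chr19:4989972-4990221 on the minus strand, lay under EGR1 peaks for 91 and 23 bases, under no H3K27ac peak, and held neither form of the motif. The EGR1 summits lay 250 and 311 bases before the start, at the first printed base and outside the printed bases.

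Npas4: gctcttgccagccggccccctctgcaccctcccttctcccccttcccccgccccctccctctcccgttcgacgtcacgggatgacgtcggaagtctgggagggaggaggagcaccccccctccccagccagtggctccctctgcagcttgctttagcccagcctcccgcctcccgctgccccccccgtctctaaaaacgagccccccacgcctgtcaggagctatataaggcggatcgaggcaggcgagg

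Rflnb encodes refilin B, a filamin-binding protein. Its promoter, chr11:76027783-76028032 on the minus strand, lay under H3K27ac peaks for 216 and 198 bases and under no EGR1 peak, and held neither form, although it is rich in CG dinucleotides (34 in 250 bases).

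Rflnb: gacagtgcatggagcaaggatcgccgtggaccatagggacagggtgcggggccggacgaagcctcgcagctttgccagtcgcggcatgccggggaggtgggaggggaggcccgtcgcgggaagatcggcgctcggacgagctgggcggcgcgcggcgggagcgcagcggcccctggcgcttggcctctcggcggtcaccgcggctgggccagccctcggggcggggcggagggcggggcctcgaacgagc

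Shank3 encodes a postsynaptic scaffold protein. Its promoter, chr15:89499358-89499607 on the plus strand, held 1 copy of each form and lay under no peak of the 4 libraries.

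Shank3: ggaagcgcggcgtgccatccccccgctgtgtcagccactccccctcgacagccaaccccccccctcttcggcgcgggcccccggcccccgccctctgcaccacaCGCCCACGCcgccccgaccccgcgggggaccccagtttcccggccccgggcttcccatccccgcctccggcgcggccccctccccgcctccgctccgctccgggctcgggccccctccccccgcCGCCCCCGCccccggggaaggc

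Over all 21044 listed promoters of protein-coding genes, taken here as 300 bases with 250 before the start, either form on either strand was present in 4.67%. By the same overlap rule 5982 promoters (28.4%) had EGR1 and acetylation, 1157 (5.5%) EGR1 alone, 143 (0.68%) acetylation alone and 8107 (38.5%) neither. Either form was in 6.07% of those with both signals, 8.12% with EGR1 alone, 4.9% with acetylation alone and 1.42% with neither. GCGTGGGCG by itself was in 1.2%, 2.16%, 1.4% and 0.259% of these classes, against 0.836% of all promoters. Most promoters under EGR1 peaks therefore held neither 9-base form in this window. Base composition moved with the class: the median number of CG dinucleotides in 300 bases was 22 with EGR1, with or without acetylation, 10 with acetylation alone and 3 with neither. Among promoters with over 25 CG dinucleotides the motif was in 11% of those with both signals, 14.4% of those with EGR1 alone, 11.1% of the 36 with acetylation alone and 16.6% of those with neither, so the order of the classes was not the same at matched CG content. The AP-1 motif TGANTCA, searched on both strands, was in 3.78% of promoters with both signals, 5.62% with EGR1 alone, 5.59% with acetylation alone and 10.9% with neither, against 7.04% of all. The CREB motif TGACGTCA was in 3.16%, 4.32%, 0% and 0.715% of the same classes and in 2.26% of all. GGGCGG, the core bound by SP factors, which can overlap GCGGGGGCG, was in 66.8%, 67.6%, 53.1% and 18.9%, against 46.7% of all. A match is a run of letters and says nothing of which factor was there.

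The libraries differed in ways that touch every count below. The EGR1 lists held 93858 and 98534 peaks over 48.8 and 50.2 Mb, and the H3K27ac lists 140155 and 268626 peaks over 62.5 and 114 Mb. The weakest EGR1 peak had a p of 0.00481 in replicate 1 and 0.00488 in replicate 2, while the H3K27ac lists reached 0.0498 and 0.0496. A q under 0.05 was reached by 98.1% and 93.6% of EGR1 peaks but by 2.57% and 4.94% of H3K27ac peaks. The EGR1 replicates shared 0.526 of their joint bases (Jaccard index) and the H3K27ac replicates 0.113, which is less than the 0.153 to 0.166 between an EGR1 and an H3K27ac library. The files give no read counts, so the depth behind a peak is unknown.

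Between the nuclei types, inhibitory marker genes went with the label for EGR1 and against it for H3K27ac. Of 12 genes that mark inhibitory neurons, the EGR1 libraries of excitatory nuclei had a peak within 2 kb of an end at 4 and 3, with the coverage summed over the list 17.4% and 13.6%. The H3K27ac libraries of excitatory nuclei had peaks at 8 and 10 of the 12, with sums of 77.1% and 75.3%. In excitatory nuclei all protein-coding genes had EGR1 peaks at 65.9% and 66.1% and H3K27ac peaks at 62.7% and 73.8%. The H3K27ac shares of the list, 66.7% and 83.3%, were thus near those of all genes, and the EGR1 shares, 33.3% and 25%, below. Median H3K27ac coverage was 4.89% and 5.26% for the list against 6.11% and 9.96% for all genes. In inhibitory nuclei the order was the other way: EGR1 peaks at 8 and 9 of 12 (sums 53.3% and 56.1%), H3K27ac peaks at 0 and 1 (sums 0% and 0.162%). There all protein-coding genes had EGR1 peaks at 59.4% and 62.6% and H3K27ac peaks at 60.8% and 61.9%, so the H3K27ac counts of the list were far below. Slc32a1, which encodes the vesicular GABA transporter, and Gad1 and Gad2, which encode the enzymes that make GABA, were all at 0 for H3K27ac in both inhibitory libraries. Of 14 excitatory markers, EGR1 was at 12 and 13 in excitatory and 8 and 11 in inhibitory nuclei, and H3K27ac at 12 and 14 against 10 and 8. The summed coverage of these 14 was 152% and 162% against 49% and 90.8% for EGR1, and 117% and 163% against 99.7% and 112% for H3K27ac. Emx1 itself had EGR1 over 12.8% and 13.6% of its end windows in excitatory nuclei and 0% in both inhibitory libraries. Of 16 cerebellar granule neuron markers, EGR1 was at 9 and 8 in excitatory and 13 and 15 in inhibitory nuclei, and H3K27ac at 8 and 12 against 13 and 13. H3K27me3, the Polycomb mark of repressed genes, was at 15 and 14 against 4 and 4. Over all genes it was at 40.8% and 41.4% against 54.3% and 47.3%. Which neurons the inhibitory label covers was not tested.

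**Figure D1:**
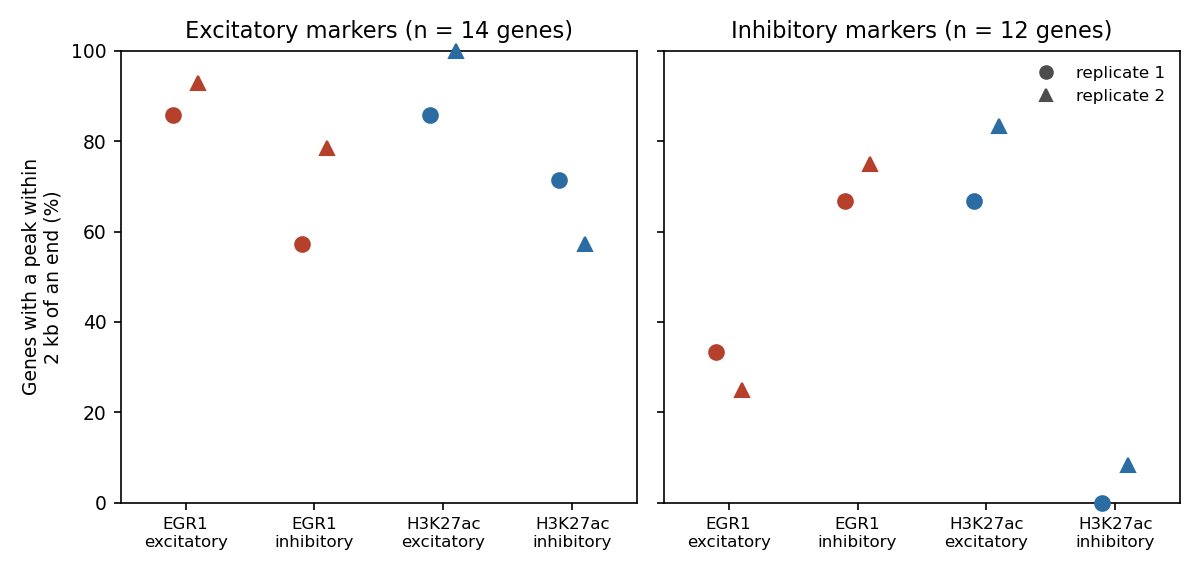
The plot gives the share of marker genes (%, vertical axis) with at least 1 peak within 2 kb of a gene end, for each EGR1 (red) and H3K27ac (blue) library of excitatory and inhibitory nuclei; circles are replicate 1 and triangles replicate 2. Of the 12 inhibitory markers, the H3K27ac libraries of excitatory nuclei had 8 and 10 and those of inhibitory nuclei 0 and 1, while the EGR1 libraries had 4 and 3 against 8 and 9. Of all protein-coding genes, the H3K27ac libraries had 62.7% and 73.8% against 60.8% and 61.9%, and the EGR1 libraries 65.9% and 66.1% against 59.4% and 62.6%.

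At EGR1 positions of 1 nuclei type, by contrast with the inhibitory markers, the H3K27ac libraries followed their labels. At 28376 positions more than 2 kb from a gene end with EGR1 in both excitatory libraries and neither inhibitory one, the centre base lay under H3K27ac of excitatory nuclei in 21% and 34.8% and of inhibitory nuclei in 9.4% and 10.6%. At 3182 such positions with EGR1 in inhibitory nuclei alone, the shares were 18.2% and 30.2% against 40.5% and 43.6%. Within 2 kb of gene ends the order was the same, with 24.2% and 35.3% against 15.3% and 17.6% at 1932 positions of excitatory nuclei alone, and 22.2% and 30.3% against 44.4% and 47.1% at 297 of inhibitory nuclei alone. What part the acetylation at inhibitory markers has in the results was not tested. Both H3K27ac libraries share it, so no count can be given without it, and the counts with H3K27ac of inhibitory nuclei in place of that of excitatory nuclei stand beside the main ones.

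An EGR1 region was accompanied by acetylation more often at a gene end than elsewhere. Of 69464 regions with EGR1 in both libraries, 43% had H3K27ac in both libraries, 34.5% in 1 and 22.5% in neither. Within 2 kb of a gene end the share with both was 66.4% of 14358 regions, against 37.3% of 30646 elsewhere in genes and 36.4% of 24460 outside genes. Read from the acetylation, 56.4% of 52925 regions with H3K27ac in both libraries had EGR1 in both. At gene ends this was 83.7% of 11388 regions, against 44% of 26013 in genes and 57.3% of 15524 outside. Gene ends made up 31.9% of the regions with both signals, 9.81% of those with EGR1 alone and 7.79% of those with acetylation alone.

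**Figure D2:**
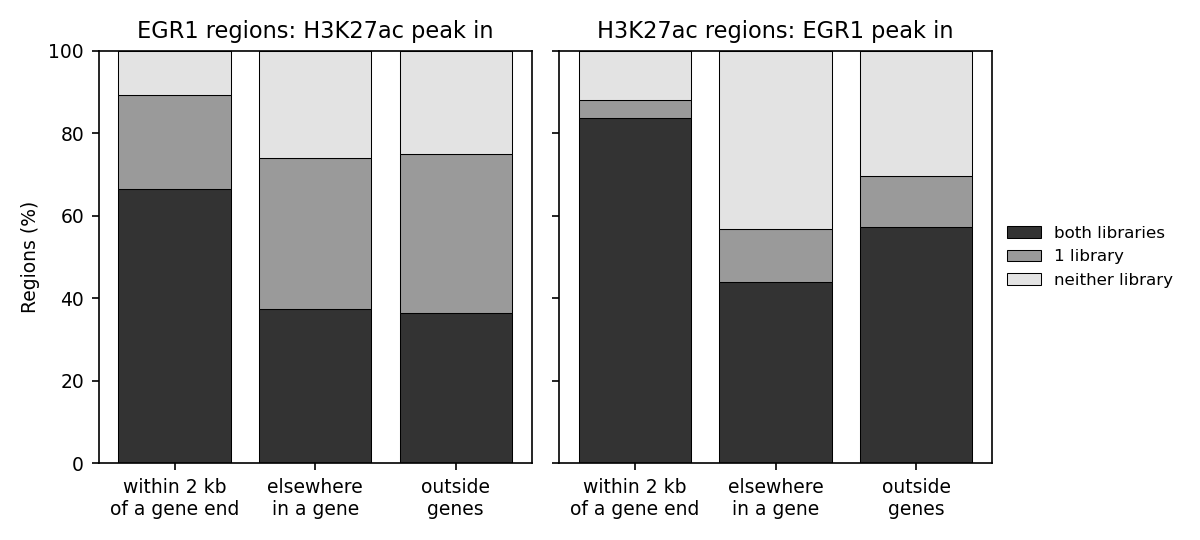
The bars split regions with EGR1 in both libraries (left) and regions with H3K27ac in both libraries (right) by how many libraries of the other target had a peak there (share of regions in %, dark for both, grey for 1, light for neither) at 3 kinds of place. In both panels the dark part is highest within 2 kb of a gene end, 66.4% for EGR1 regions and 83.7% for H3K27ac regions.

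Counts of the classes rose when a library was left out. The remaining library of that target then decides alone, which is a looser rule, so a rise is largely built in. Without H3K27ac replicate 1, regions with EGR1 and acetylation were 46541 in place of 29865. Leaving out each of the 4 libraries in turn gave 23192 to 33558 regions with EGR1 alone and 20160 to 200010 with acetylation alone, the last without H3K27ac replicate 1. Regions with EGR1 alone numbered 31560 without EGR1 replicate 1, 28832 without EGR1 replicate 2 and 33558 without H3K27ac replicate 2, and regions with acetylation alone numbered 89626 without H3K27ac replicate 2. With H3K27ac of inhibitory nuclei as the acetylation, EGR1 regions of excitatory nuclei gave 24163 with both signals, 36246 with EGR1 alone and 23351 with acetylation alone.

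The stronger an EGR1 peak, the more often it overlapped H3K27ac peaks. When each EGR1 list was cut into 10 equal parts by -log10 p, the share of peaks that overlapped H3K27ac in both libraries went from 13.4% in the weakest part to 69.6% in the strongest in replicate 1, and from 11.9% to 69.9% in replicate 2. The share with no acetylation in either library went from 49.3% to 6.62% and from 51.7% to 6.39%. H3K27ac peaks behaved alike at their upper end, with EGR1 in both libraries at 62.7% and 62% of the strongest part and 11.5% and 3.13% of the weakest, although the parts between were not all in order. The fold enrichment of a peak is the authors' own value and ranks peaks only within its list. For EGR1 it had a median of 5.26 and 4.96 in regions with both signals and 4.22 and 4.02 in regions with EGR1 alone. For H3K27ac the medians were 2.9 and 2.97 with both signals and 2.58 and 2.44 alone. Width also differed, and a wider peak has more chance of any overlap. EGR1 peaks had a median width of 645 bp in both libraries with both signals, and of 404 and 398 bp alone. For H3K27ac these widths were 507 and 559 bp, and 364 and 373 bp. What part width has in the rise with strength was not tested.

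**Figure D3:**
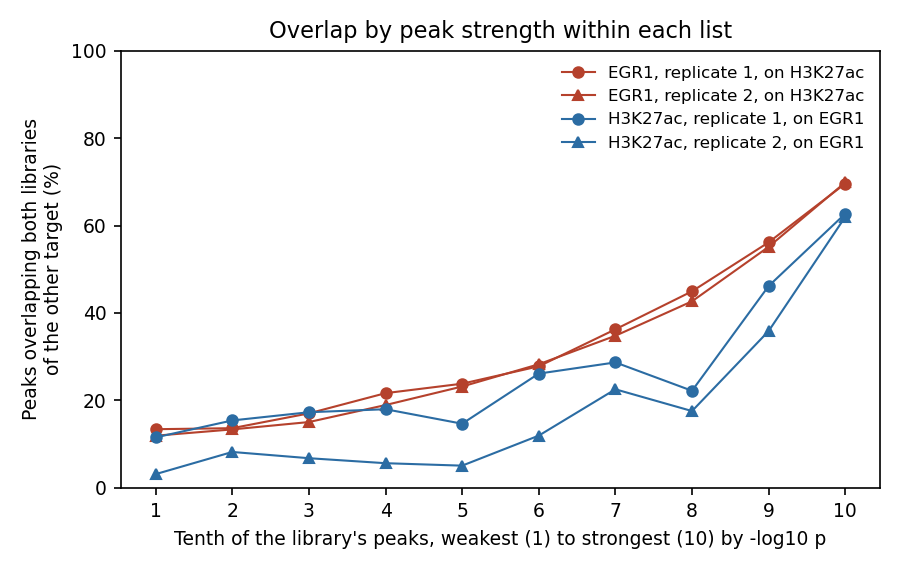
The lines give, for each of the 4 libraries, the share of peaks (%) that overlap both libraries of the other target, over 10 equal parts of that library's own list from weakest to strongest -log10 p. EGR1 peaks (red) climb from 13.4% and 11.9% to 69.6% and 69.9%, and H3K27ac peaks (blue) end at 62.7% and 62%.

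Distances between summits were read only where an EGR1 peak overlapped an H3K27ac peak. With median peak widths of 319 to 450 bp in the 4 lists, overlap by itself keeps them short. No background distance was computed, so the values only describe these pairs. The median distance from an EGR1 summit to the nearest H3K27ac summit was 162 to 182 bp over the 4 pairs of libraries, and 67.5% to 73.2% of EGR1 summits lay inside the acetylated peak. Over 14512 genes with 1 listed start site, EGR1 summits within 1 kb of the start, found at 8073 and 8115 genes, lay at a median of 29 and 20 bp after it, with the middle 50% from -194 to 160 bp and from -192 to 155 bp. The EGR1 median does not mark where summits were most frequent, since they lay mainly on either side of the start. Bins centred at -175 and 125 bp held 9.54% and 10.9% of them in replicate 1, against 3.29% at -25 bp. In replicate 2 these shares were 9.85%, 10.7% and 3.33%. For H3K27ac the medians were 28 and -19 bp with wider middle ranges, from -249 to 295 bp and from -232 to 227 bp. Regions with both signals were also longer, with a median of 1145 bp against 503 bp for EGR1 alone and 599 bp for acetylation alone. A region merges the peaks of every library found there, and this class requires 4 libraries where the other classes require 2. Regions found in 1 library had medians of 260 to 295 bp, so the order of lengths is partly set by the rule. Because a longer region has more chance of any overlap, other marks were read at the centre base of each region only.

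Of the other marks, which the classes did not use, H3K4me3 differed most between the classes. H3K4me3, the mark of active promoters, covered the centre of 47.1% and 61.8% of regions with both signals, 12.5% and 23.6% with EGR1 alone and 5.98% and 10.6% with acetylation alone (replicates 1 and 2 of H3K4me3 in excitatory nuclei). H3K4me1, a mark of enhancers, covered 57.9% and 69.8%, 52.9% and 68.3%, and 41.1% and 51.1%. H3K27me3, the Polycomb mark of repressed genes, covered 8.24% and 11%, 11.5% and 14.6%, and 8.41% and 10.1%, so it did not separate the class with both signals from acetylation alone. H3K4me3 kept its order by place, with 27.7% and 47.5%, 9.19% and 20.5%, and 4.28% and 8.83% more than 2 kb from a gene end. At gene ends its shares were 88.4% and 92.4%, 43.1% and 52.5%, and 26.1% and 31.3%. More than 2 kb from a gene end, H3K4me1 was at 73.2% and 86.4% of 20335 centres with both signals, at 53.9% and 69.8% of 14092 with EGR1 alone and at 41.2% and 51.5% of 15973 with acetylation alone. Both H3K4me1 libraries thus gave the same order of the 3 classes at these distal places. Both values with both signals lay above both with EGR1 alone. In replicate 1, EGR1 alone and acetylation alone differed by less than the gap between the replicates of EGR1 alone. EGR1 alone in replicate 1 (53.9%) and acetylation alone in replicate 2 (51.5%) were close. At gene ends the order of H3K4me1 turned round, with 25.3% and 34.4% of 9530 centres with both signals, 43.6% and 53.7% of 1532 with EGR1 alone and 40.9% and 46.5% of 1350 with acetylation alone. There H3K27me3 covered 6.82% and 8.22%, 18.3% and 18.5%, and 10% and 10.4%, highest with EGR1 alone in both libraries.

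**Figure D4:**
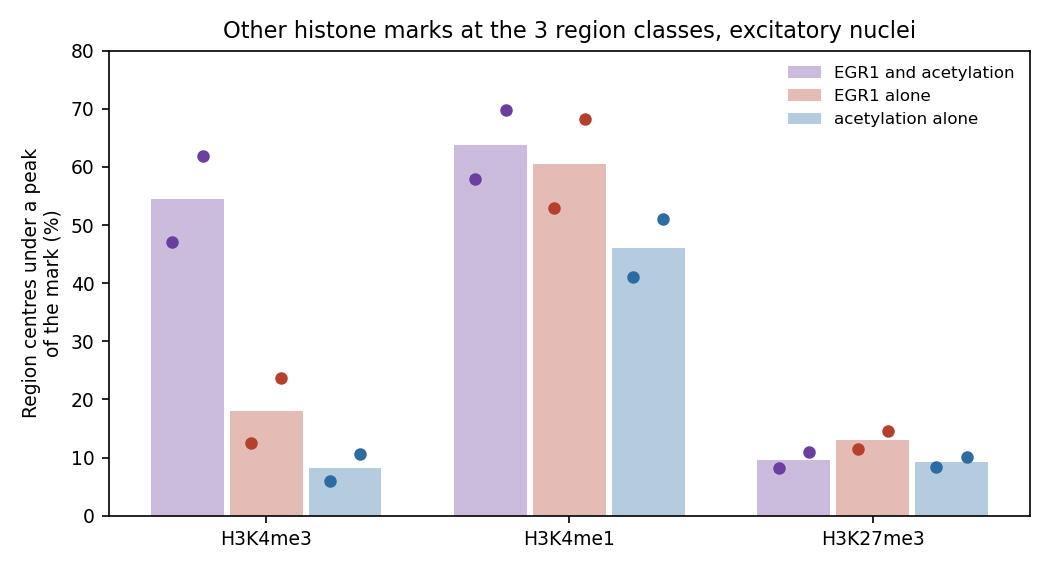
Bars are the mean over 2 libraries and points the single libraries of the share of region centres (%) under a peak of H3K4me3, H3K4me1 or H3K27me3 in excitatory nuclei, for regions with EGR1 and acetylation (purple), EGR1 alone (red) and acetylation alone (blue). Both H3K4me3 points of the first class, 47.1% and 61.8%, lie above all points of the other classes, which reach 23.6%.

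Regions with both signals were more often bound by EGR1 in inhibitory nuclei than regions of the other classes. EGR1 of inhibitory nuclei covered the centre of 47.5% and 55.5% of the regions with both signals, 16.6% and 22.4% of those with EGR1 alone and 3.54% and 5.4% of those with acetylation alone. H3K27ac of inhibitory nuclei was at 47% and 50.1%, 14.4% and 16.7%, and 14.1% and 15.6%. The share of EGR1 peaks that overlapped H3K27ac in both libraries of their own nuclei was 31.9% ± 0.79 (SD, n = 2) in nuclei labelled excitatory. In those labelled inhibitory it was 45.3% ± 0.34 (SD, n = 2). The difference of -13.4 points was larger than the spread within each type, with a two-sided exact permutation p of 0.33, the smallest that 2 libraries against 2 allow. It changed sign, to 2.66 points, when H3K27ac replicate 1 of both types was left out.

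The leading regions of each class were taken by the worse of their ranks by -log10 p within the lists. The first with both signals was chr2:98666355-98667479, which held the strongest H3K27ac peak of both libraries, EGR1 peaks of rank 5 and 4, and peaks of all other marks in excitatory nuclei, and lay 1034682 bp from the nearest protein-coding gene, Lrrc4c. No list of known high-signal repeat regions was used here. The next was chr5:135544505-135545896 at an end of Hip1, whose product links huntingtin to clathrin-mediated uptake, with EGR1 folds of 9.93 and 9.5 and H3K27ac folds of 5.34 and 6.34. A region at an end of Inpp5f, which encodes a phosphoinositide phosphatase (chr7:128610561-128611621), had EGR1 folds of 14.1 and 12.6 and H3K27ac folds of 5.16 and 7.33. Both carried H3K4me3 in both libraries.

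EGR1 alone was led by chr16:11143910-11144336 within Zc3h7a, the strongest peak of both EGR1 lists, with folds of 29.2 and 30. It had no H3K27ac peak in excitatory nuclei but carried H3K4me1, H3K4me3 and H3K27me3 peaks in both libraries of each. The first region with both signals, above, likewise carried all of these marks. Since no list of known high-signal regions was used, whether the Zc3h7a region is one was not tested. The region ranked next, chr18:68691926-68692338 with folds of 26.5 and 23.3, carried H3K27me3 in both libraries. The same limit holds for it. The third, chr13:44907533-44908390 within Jarid2, which encodes a subunit of Polycomb repressive complex 2, had folds of 14.1 and 12.6 and lay 13682 bp from the nearest end of that gene, with H3K4me1 in both libraries and no H3K27me3. Acetylation alone was led by chr10:5166904-5167953 within Syne1, the gene of nesprin-1, a protein that links the nucleus to the cytoskeleton. It had H3K27ac folds of 4.55 and 4.67 at ranks 619 and 1376, and H3K4me1 but no H3K4me3.

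Most genes had both EGR1 and acetylation near their ends, though the rule did not ask for both at the same place or the same end. Over the 300-base promoters, 28.4% had both. Within 2 kb of a gene end, 12062 of 21627 protein-coding genes (55.8%) had both signals in all 4 libraries. EGR1 alone was found at 189 genes (0.874%), acetylation alone at 543 (2.51%) and neither at 4716 (21.8%). The remaining 4117 genes had a peak in only 1 library of EGR1, of H3K27ac or of both. Leaving out a library loosens the rule for genes too, and the small classes grew by amounts that differed between libraries. EGR1 alone held 301 and 286 genes without EGR1 replicate 1 or 2, 437 without H3K27ac replicate 1 and 1409 without H3K27ac replicate 2. Acetylation alone held 1850 genes without H3K27ac replicate 1. With H3K27ac of inhibitory nuclei in its place the 3 classes held 11709, 1199 and 433 genes. With peaks of q under 0.05 only, 1039 genes had both, 7765 EGR1 alone and 0 acetylation alone.

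H3K27me3 was common at the genes with 1 signal alone. It had a peak at the ends of 68.3% and 70.4% of the genes with EGR1 alone and of 69.1% and 67.2% of those with acetylation alone, in the 2 excitatory H3K27me3 libraries. Genes with both signals had it in 27.8% and 28.5%, and genes with neither in 45.5% and 45.6%. H3K4me3 was at 97.4% and 99.1% of genes with both, 55.6% and 73.5% with EGR1 alone, 46% and 61.7% with acetylation alone and 11.6% and 17.9% with neither. In genes at least 8 kb long with a listed start, EGR1 was more often at the start end: of 7644 with both signals, 95.9% and 96% had an EGR1 peak there and 30.6% and 31.3% at the far end, while H3K27ac was at the start end in 93% and 96% and at the far end in 47% and 60.6%. In 96 such genes with EGR1 alone, EGR1 was at the start end in 79.2% and 78.1% and at the far end in 22.9% and 27.1%. In 329 with acetylation alone neither end was the higher in both libraries, with H3K27ac at the start end in 53.5% and 69% and at the far end in 59% and 62%.

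For each gene, coverage is the share of bases within 2 kb of its 2 ends that lay under peaks, a scale per length. EGR1 and H3K27ac coverage were compared in 15160 genes with limma on quantile-normalized coverage. No gene passed an adjusted p of 0.05 in either direction (0% each), and at an unadjusted p under 0.05 there were 1254 genes (8.27%) with more EGR1 and 1180 (7.78%) with more H3K27ac. Differences for single genes below are therefore values that did not pass the test. Coverage in both EGR1 libraries was above both H3K27ac libraries in 3251 genes (21.4%) and below both in 3844 (25.4%), which is the background for the orders given next. The median difference over all genes tested was -0.26 points, EGR1 minus H3K27ac.

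Of the 7 genes of the EGR family and its corepressors 5 had both signals, a share near the 55.8% of all genes: Egr1, Egr3, Egr4, Nab1 and Nab2. Egr1 itself had EGR1 coverage of 24.3% and 21.6% and H3K27ac coverage of 15.2% and 8.48%, so the groups did not overlap. Its difference was 12.05 points on the normalized scale (SE 3.96, limma adjusted p = 0.255). Egr4, a related activity-induced factor, had 23.7% and 16.9% against 9.86% and 14.9%, again without overlap. Egr3, needed for muscle spindle development and induced by activity in neurons, had 9.62% and 9.24% against 9.69% and 12.8%, with H3K27ac the higher by less than the gap between its replicates. Nab1 had 30.5% and 28.4% against 25.6% and 27.2%, with EGR1 the higher in both libraries. Nab2 had 18.8% and 22.5% against 21.6% and 9.1%, and its groups overlapped. Egr2, known for its part in peripheral myelination, had a peak only in EGR1 replicate 2 (2.86%), and Wt1, which encodes a related zinc finger factor of the kidney, had none.

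AP-1 and other immediate early factors had both signals at 15 of 18 genes, and activity-regulated effectors at 19 of 25, against 55.8% of all genes. The median difference was 6.15 points over the 18 and 3.82 over 23 effectors tested, and 0 of either list passed the adjusted test. Jun, a subunit of AP-1, had EGR1 coverage of 37.4% and 33.7% and H3K27ac coverage of 13.9% and 18.7%, apart by 19.73 points (SE 3.64, limma adjusted p = 0.246). Junb, its close relative, had the opposite order, 20.2% and 19.3% against 27.4% and 25.2%. Fos, the partner of both, had 17.4% and 12.2% against 13.6% and 17.4%, with overlap. Fosl1 had 24.2% and 26.2% against 11.3% and 12%. Npas4, an activity-induced factor that shapes inhibitory synapses, had 9.84% and 10.1% against 6.6% and 6.05%. Nr4a1, a nuclear receptor of the immediate early class, had 9% and 11.9% against 6.06% and 0.175%. In these last 3 genes EGR1 was above H3K27ac in all 4 pairings of libraries.

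Among the effectors, Arc, whose product drives removal of AMPA receptors from synapses, had EGR1 coverage of 9.27% and 13.8% and H3K27ac coverage of 6.45% and 4.51%. Dusp6, a phosphatase that turns off ERK signalling, had 30% and 27.9% against 10.8% and 19.8%. Per1, a component of the circadian clock, had 21.9% and 19.1% against 4.4% and 14%. All 3 were without overlap, with EGR1 the higher. Bdnf, which encodes a neurotrophin, had only 5.35% and 0% for EGR1 and 0% and 3.64% for H3K27ac, so it fell in neither reproducible class. The reference lists several starts for Bdnf, and the window at the gene's outer ends leaves out the internal ones.

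**Figure D5:**
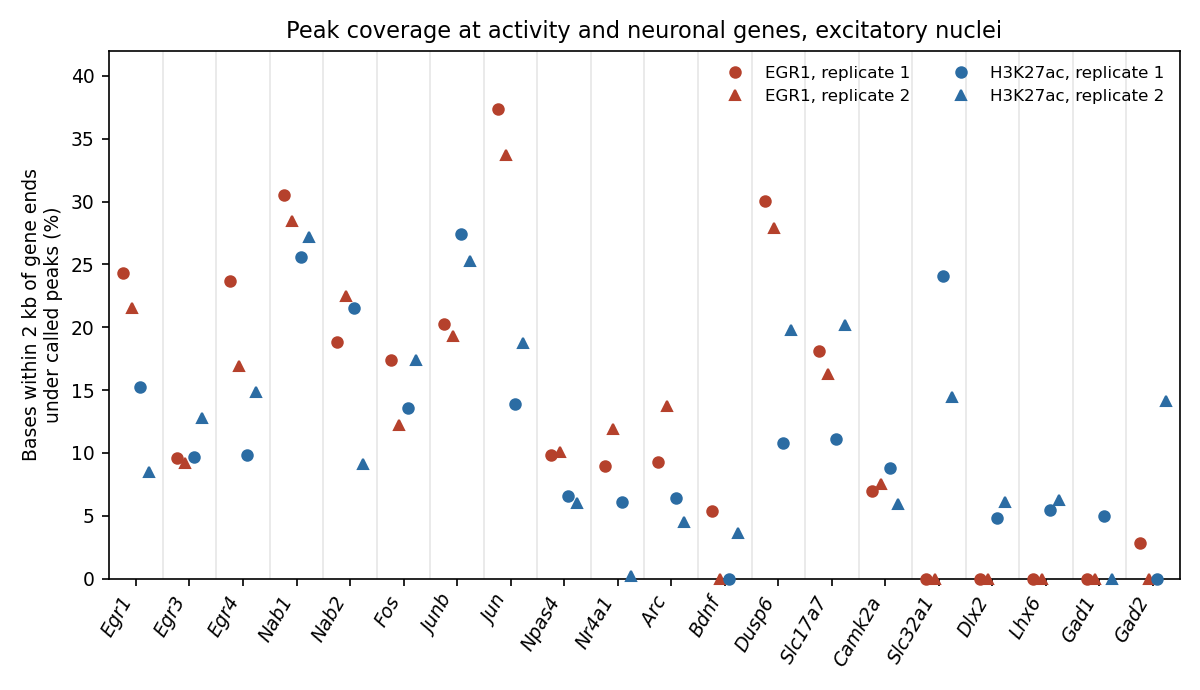
Points give the share of bases within 2 kb of the gene ends under called peaks (%) in each of the 4 libraries of excitatory nuclei, EGR1 in red and H3K27ac in blue, circles for replicate 1 and triangles for replicate 2. Egr1, Jun and Arc have both red points above both blue points, while Slc32a1, Dlx2 and Lhx6 have no EGR1 and H3K27ac in both libraries.

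At the start site itself, several activity genes had EGR1 without acetylation. Over the 300-base promoters, EGR1 alone was found at 5.5% of all 21044 promoters. Of 17 promoters of AP-1 and other immediate early factors it was at 4, those of Ier5, Klf4, Npas4 and Nr4a3. Of 26 promoters of activity-regulated effectors it was at 6, in Bdnf, Gadd45b, Per1, Plk2 and Rheb, and of the 8 promoters of the EGR and NAB list at 1, that of Egr4. Of 14 promoters of excitatory markers it was at 3, in Neurod1, Neurod2 and Neurod6, which encode related neuronal basic helix-loop-helix factors. All of these genes except Nr4a3, Bdnf and Neurod2 had H3K27ac in both libraries elsewhere within 2 kb of their ends. Klf4, whose promoter is printed above, had H3K27ac over 11% and 18.2% of its end windows and none over the 250 bases before the start. Of the 12 promoters of inhibitory markers 0 had EGR1 alone. The 6 effector promoters lie in 5 genes. The housekeeping list had EGR1 alone at 3 of 13 promoters, in Hprt, Rpl13a and Tfrc.

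Genes of the glutamatergic synapse were nearly all in the class with both signals. Of 25 glutamate receptor genes 23 had EGR1 and acetylation, and of 17 genes for postsynaptic scaffolds and CaMKII 15, while 15 of 16 housekeeping genes did so too. The medians of the difference were 3.8, 1.08 and -2.83 points. Grik4, a kainate receptor subunit, had EGR1 coverage of 23.4% and 21.8% against H3K27ac of 15% and 9.22%. Grm4, a presynaptic glutamate receptor, had 20.1% and 18.4% against 7.79% and 8.99%. Grin1, the obligatory subunit of NMDA receptors, had 27.9% and 31.1% against 1.75% and 30.1%, so its acetylation differed more between replicates than it did from EGR1. Dlg2, a scaffold of the PSD-95 family, had more acetylation, 22.4% and 39.5% against 19.4% and 20.6%. Slc17a7, the vesicular glutamate transporter that defines cortical excitatory neurons, had 18.1% and 16.3% against 11.1% and 20.2%, with overlap, and Camk2a 6.94% and 7.55% against 8.82% and 5.95%, also with overlap.

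Acetylation without EGR1 was found at 4 of 12 inhibitory and 2 of 14 striatal marker genes, against 2.51% of all genes. Slc32a1 had H3K27ac over 24.1% and 14.4% of its windows and no EGR1. Dlx2 and Lhx6, which encode homeodomain factors of developing interneurons, had H3K27ac at 4.83% and 6.12% and at 5.46% and 6.26%, and no EGR1. Vip, which encodes a neuropeptide of an interneuron subtype, was the fourth inhibitory marker in this class. The striatal genes with acetylation alone were Drd2 and Tac1, and 9 of the 14 had both. Drd1, the D1 dopamine receptor, had EGR1 at 6.29% and 6.81% and H3K27ac at 17.1% and 10.7%.

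In inhibitory nuclei several of these genes had the opposite order. EGR1 covered 7.87% and 6.2% of the windows of Slc32a1, 6.32% and 5.34% of Dlx2 and 5.85% and 9.81% of Drd1, and H3K27ac 0% of all 3 in both libraries. Arc went the other way round, with EGR1 at 9.2% and 9.97% and H3K27ac at 36.4% and 30.3% in inhibitory nuclei. Of 14257 genes tested for an interaction of target with nuclei type, EGR1 below H3K27ac in excitatory and above it in inhibitory nuclei, in every library, was seen in 209 (1.47%) and the reverse in 1365 (9.57%). None passed the limma interaction at an adjusted p of 0.05, and 1631 (11.4%) had an unadjusted p under 0.05. The interaction was -26.5 points for Slc32a1 (SE 5.1, adjusted p = 0.14) and 21.2 for Arc (SE 5.15, adjusted p = 0.175). The difference between the nuclei types in acetylation at inhibitory markers, given above, moves with these values, and its part in them was not tested.

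Markers of oligodendrocytes, microglia and vessels were not reproducibly marked by both, while astrocyte markers were so at about the share of all genes. Of 9 oligodendrocyte lineage, 6 microglia and 5 vascular genes 0 had EGR1 and acetylation in all 4 libraries, and 8, 6 and 4 had a peak in only 1 library of EGR1, of H3K27ac or of both. Pdgfrb, a pericyte receptor named after its values were seen, had acetylation alone. H3K27ac replicate 2 had a peak at 7, 6 and 3 of them and replicate 1 at 4, 1 and 1, against 73.8% and 62.7% of all genes in replicates 2 and 1. Astrocyte genes had both signals at 4 of 7, against 55.8% of all genes, among them Gfap, the glial filament protein, and Slc1a2, the glutamate transporter. Aqp4, a water channel of astrocytes, had EGR1 alone. Of 39 HOX genes, which pattern the body axis and are kept silent in the forebrain, 0 had both signals and 30 had neither.

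The genes with the most reproducible coverage by both signals were led by H1f4, a linker histone gene, with EGR1 over 41.1% and 42.4% and H3K27ac over 42.9% and 42.7%. Inca1 and Camta2, neighbours on chromosome 11 that share part of their windows, followed with EGR1 at 43% and 41.9% and at 37% and 37.5%, and H3K27ac at 32.4% and 37.7% and at 36.3% and 41.2%. H2ac20 and H2ac21, histone genes next to each other, also share windows and are not separate findings. Tspan33, a tetraspanin gene, had EGR1 at 37.6% and 36.2% and H3K27ac at 40.3% and 30.6%. Except at Inca1, where both EGR1 libraries were higher, EGR1 and H3K27ac overlapped or differed by less than the gap between replicates.

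EGR1 alone was led by Krtap11-1, a hair keratin-associated protein gene at chr16:89570176-89571183, with coverage of 24.8% and 26.8% in the EGR1 libraries and 0% for H3K27ac. Its difference, 26.07 points (SE 2.98, limma adjusted p = 0.246), was among the first in order of p. H3c8, a histone gene, had EGR1 at 23.1% and 20.9%. Smoc2, a gene for a matricellular protein at chr17:14279490-14404790, had 14.9% and 14.2% in excitatory nuclei and no EGR1 or H3K27ac in either library of inhibitory nuclei. Myocd, a coactivator gene of smooth and cardiac muscle, had 12.5% and 12.3%. Nfic, which encodes a nuclear factor I protein, had 12.2% and 15%, with H3K27ac at 4.36% and 11% in inhibitory nuclei.

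Among genes with unequal coverage, Pkm, the glycolytic enzyme pyruvate kinase M, had EGR1 at 29.9% and 30.2% and H3K27ac at 4.79% and 4.49%. Klhl29 had 32.5% and 30.4% against 4.52% and 10.3%. In the other direction, Gstm6, a glutathione transferase gene, had EGR1 at 3.32% and 4.75% and H3K27ac at 24% and 27.2%, and Agpat3, an enzyme of phospholipid synthesis, had 7.49% and 6.74% against 27% and 28.5%. Psmg4, a proteasome assembly chaperone gene, had 11.4% and 11.5% against 29.4% and 33.3%. Gdap2 had 8.9% and 9.4% against 26.9% and 31.2%. H4c11, a histone gene, had the higher EGR1, 39.6% and 39.1% against 10.1% and 13.8%. Rflnb, whose promoter is printed above, had EGR1 in replicate 1 only (4.6%) and H3K27ac at 21.2% and 30.5%. All of these had an adjusted p of 0.246 in limma, and none overlapped between EGR1 and H3K27ac.

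Acetylation alone was led by Igsf6, an immunoglobulin superfamily gene of myeloid cells, with H3K27ac over 24.6% and 17%. B3gnt8, a glycosyltransferase gene, had 15.9% and 16.1%, and Mta1, a subunit of the NuRD deacetylase complex, had 13.8% and 16.9%. Rhbdl3, which encodes a rhomboid-like protein, had 26.3% and 14.8% in excitatory nuclei without EGR1, and EGR1 at 15% and 18.1% in inhibitory nuclei. Dnmt3a, a de novo DNA methyltransferase of postnatal neurons, also had acetylation alone at 7.25% and 5.01%. Dnmt3b, its relative, had both signals, with EGR1 at 11.4% and 12.1% and H3K27ac at 14.1% and 21.8%. Tet3, which oxidises methylated cytosine, had H3K27ac at 24.6% and 16.2% and EGR1 in replicate 2 only (3.37%).

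Enzymes that write, remove and read acetylation had both signals at 13 of 17 genes, against 55.8% of all genes. The writers Ep300 and Crebbp were among them, with EGR1 at 23.1% and 29.3% and at 7.54% and 11.6%, and H3K27ac at 22.9% and 29.7% and at 9.56% and 3.64%. Hdac5, a class IIa deacetylase, had EGR1 at 23.6% and 22.2% against H3K27ac at 17.3% and 10.6%, without overlap. Hdac7, of the same class, had acetylation alone, 8.2% and 5.76%. Both writers overlapped between EGR1 and H3K27ac.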

How the data were processed

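EGR1 and H3K27ac were measured by CUT&RUN in excitatory nuclei (2 libraries each), and the same targets in inhibitory nuclei and 3 further marks served for comparison. Groups came from the sample titles. The authors called peaks per library: MACS2 2.2.5, Bowtie2 2.3.5 and mm10 are named in the submitters' processing notes, as are SAMtools 1.12, Picard 2.25.0, cutadapt 1.18 and Trim Galore 0.5.0, without settings. Per peak, the authors deposited -log10 p, -log10 q, fold enrichment as a ratio, and a whole-number score. The score was not used in any result. No read counts are given, so depth is unknown.

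Peaks were taken as deposited. Genes and promoters came from RefSeq (GRCm38.p6). The planned start-site window was replaced by 2 kb of both gene ends for all genes. Coverage was quantile-normalized and fitted with limma 3.58.1 (R 4.3.3; trend, Benjamini-Hochberg), for genes covered in at least 2 of the 4 libraries (4 of 8 for the interaction, a test added after seeing the data), and the code was tested on simulated data. Named genes are taken from the 10 most reproducibly covered of each class, 5 per direction in order of p, up to 4 per list and fixed EGR and activity genes, of which the text names a part; a few other list members were named after their values were seen. The members and lists were chosen with earlier results of these data known. Alternatives covered thresholds, overlap, windows, scaling, filters, the replicate block and single libraries.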

Additional observations from a re-analysis of the deposited data

How the results depend on the processing

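Counts of the classes moved with the peak threshold, and the cause was not tested. With -log10 p of at least 3, regions with both signals were 13699, EGR1 alone 34429 and acetylation alone 1727, and genes with EGR1 alone 1753 and acetylation alone 53. When the lists were cut to their strongest peaks at 1 common length, regions with EGR1 alone were 25467 and acetylation alone 5168, and genes 820 and 188. Requiring 50% of a region to be covered left 8069 regions with both signals. Windows of 1 kb gave 302 genes with EGR1 alone. Chosen after seeing the data, q under 0.05 gave 1413, 56291 and 12 regions and 1039, 7765 and 0 genes, start-site windows, which also reduce the genes to 17273, gave 231 with acetylation alone, and H3K27ac of inhibitory nuclei gave 36246 regions and 1199 genes with EGR1 alone. Without single libraries, regions with both signals ranged from 31863 to 46541, EGR1 alone from 23192 to 33558 and acetylation alone from 20160 to 200010, and genes from 12254 to 13282, 286 to 1409 and 735 to 1850. In these counts the remaining library of a target decides alone, a looser rule under which a rise is largely built in.

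Limma called 0 genes in either direction in every setting but the replicate block, which gave 79 genes with more EGR1 and 36 with more H3K27ac. At an unadjusted p under 0.05 the block gave 1260 and 1217, and the other settings 276 to 2103 and 80 to 2266. Deviations of same-numbered libraries had a correlation of -0.000248 over genes, so same-numbered libraries did not deviate together, and share only a number. Peak names inside the EGR1 lists carry the numbers 3 and 4 in place of 1 and 2, so what the block paired is uncertain. The 10 genes named in order of p kept their direction in all 116 alternatives computed, with adjusted p from 0.00125 to 0.998; the 10 under 0.05 all had the block. The difference in the share of EGR1 peaks on acetylation turned to 2.66 points without H3K27ac replicate 1 of both types, and was -8.15 without replicate 2. It was -23.6 with -log10 p of at least 3 and -20.2 with equal numbers of strongest H3K27ac peaks.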
